A study of Mus musculus with 3 samples.

Results

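The collagen gene family was followed across the cell types of mouse back skin in 3 single-cell libraries. Members were all gene symbols of the form Col, number, a, number in the deposited gene list, 1 of which was left out by the rule, so that 43 of the 32285 listed genes belong to the family. Of these, 36 had at least 50 unique molecular identifiers (UMIs, each standing for 1 captured mRNA molecule) over the 3 libraries and are described here. The other 7 were Col9a2 with 33 UMIs, Col19a1 with 22, Col26a1 with 14, Col9a1 with 7, Col22a1 with 5, Col6a4 with 4 and Col10a1 with 4.

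The study asked how loss of the mechanically gated ion channel Piezo1 in keratin 5-expressing cells alters the skin. The 2-week knockout library came from a C57BL/6 mouse of genotype K5-Cre-er/Piezo1fl/fl/Tdfl/+ sampled at postnatal day 62, and the 3-week knockout library from K5-Cre-er/Piezo1fl/fl/Tdfl/fl skin sampled at day 71. The control library was K5-Cre-er/Piezo1fl/+/Tdfl/+ skin sampled at day 62. Control skin therefore carried the same Cre driver, 1 floxed Piezo1 allele and the same tamoxifen course (days 48 to 52), and the 3-week knockout has no control of its own age. The keratin 5 promoter is active in basal epithelial cells, so the fibroblasts, vessels and nerves described below are not the cells this Cre driver is chosen to reach. All skin was digested with collagenase I and then trypsin before capture.

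Each group is 1 library, so no difference between groups has a replicate check and no p-value is given. Levels are UMIs summed over the cells of a class, divided by all UMIs of that class and given in the usual CPM scale, and every interval is an exact 95% interval that covers counting error only. After filtering, the 2-week knockout library held 9585 cells, the 3-week knockout library 9599 and the control library 4912, with a median of 7506, 8768 and 9989 UMIs per cell in the same order. Piezo1 itself had 27.7 CPM in epithelial cells of the 2-week knockout, 15.1 CPM in those of the 3-week knockout and 34.9 CPM in control. In the same order it had 58.0, 47.5 and 104 CPM in dermal papilla or sheath-like cells and 52.6, 42.0 and 63.3 CPM in fibroblast-like cells. Schwann-like cells had 23.1, 4.56 and 3.68 CPM, out of 390020, 438500 and 271649 UMIs of all genes. The Cilp/Bgn cluster had 81.5, 36.9 and 62.5 CPM, out of 196415, 677124 and 351763 UMIs. These 2 sets rest on few Piezo1 UMIs, and no direction is claimed for them. A lower Piezo1 level was thus not particular to epithelial cells, and the cause was not tested. Whether the Piezo1 3′ tags lie inside the deleted part is not given in the sources used here. Cell classes were rebuilt by clustering with every collagen gene left out, and named from markers that contain no collagen, so a collagen's level did not decide which cells are compared. A cluster with no clear class is named by its leading genes.

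Collagens are secreted or membrane proteins whose chains wind into triple helices. The fibrillar types (I, II, III, V, XI, XXIV and XXVII) form the tensile fibrils of the dermis, type IV builds the sheet of the basement membrane, type VI forms beaded microfilaments around cells, type VII anchors the epidermis to the dermis, and the fibril-associated types decorate fibril surfaces. In skin, dermal fibroblasts make most fibrillar collagen, while keratinocytes, vessels and nerves contribute to their own basement membranes. Because UMIs are counted at the 3′ end of a transcript they are not divided by gene length, and capture can differ between genes, so levels are compared between cells and libraries for 1 gene at a time.

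Collagen mRNA was 0.0858% of all UMIs in the 2-week knockout library, 0.188% in the 3-week knockout library and 0.517% in control. Fibroblast-like cells supplied 39.4% of the collagen UMIs in the 2-week knockout, 76.9% in the 3-week knockout and 88.5% in control. Epithelial cells supplied 44.6% in the 2-week knockout, 13.2% in the 3-week knockout and 5.97% in control. Fibroblast-like cells were 1.31% of the cells in the 2-week knockout library, 6.98% in the 3-week knockout library and 7.68% in control, so the library totals move with how many fibroblasts were recovered as well as with the level per cell. Within fibroblast-like cells collagens made up 3.74% of the UMIs in the 2-week knockout, 3.56% in the 3-week knockout and 7.51% in control.

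**Figure D1:**
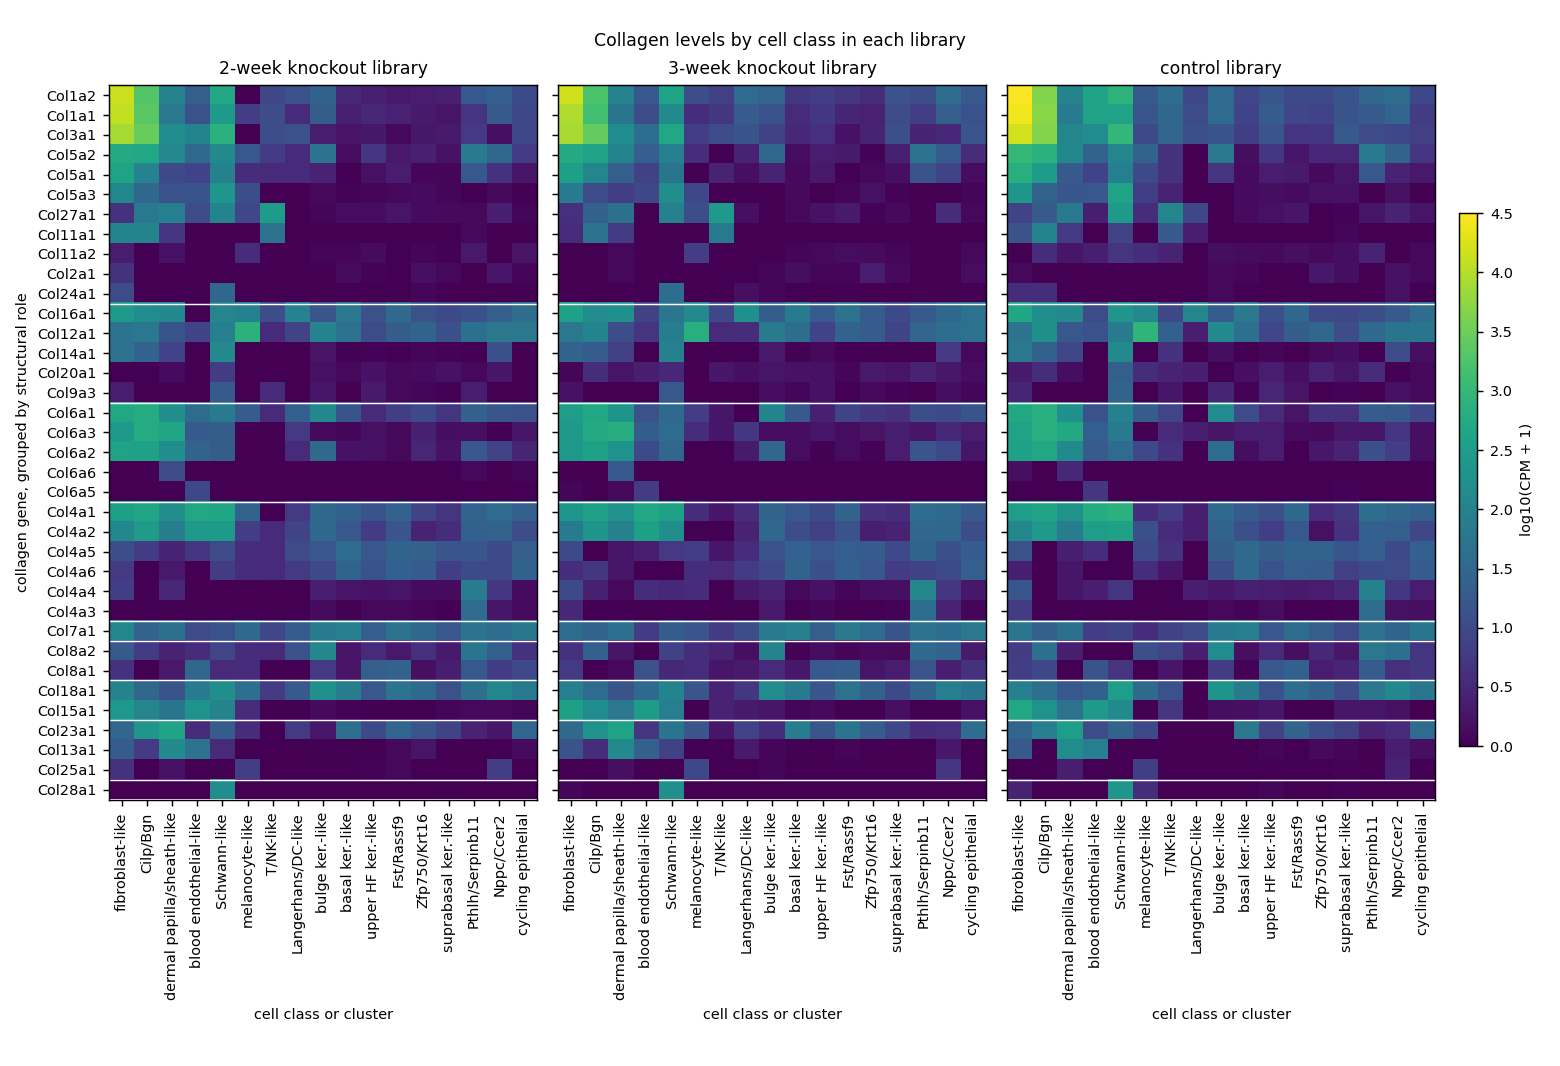
Level of the 36 collagens (rows, grouped by structural role, white lines between roles) in 17 cell classes or clusters with at least 35 cells in every library (columns), in the 2-week knockout, 3-week knockout and control libraries. Colour is log10 of CPM plus 1. The brightest cells are Col1a1, Col1a2 and Col3a1 in fibroblast-like cells, and single bright cells such as Col12a1 in melanocyte-like cells and Col28a1 in Schwann-like cells recur in all 3 libraries.

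The fibrillar genes Col1a1 and Col1a2, which encode the 2 chains of type I collagen, and Col3a1, which encodes type III, dominated the family. Col1a2 (GRCm38 chromosome 6, 4504814 to 4541544, plus strand) had 13661 CPM in fibroblast-like cells of the 2-week knockout, 15056 CPM in those of the 3-week knockout and 29267 CPM in control. Col1a1 (chromosome 11, 94936224 to 94953042, plus strand) had 12011 CPM in the 2-week knockout, 9275 CPM in the 3-week knockout and 25299 CPM in control. Col3a1 (chromosome 1, 45311538 to 45349706, plus strand) had 7957 CPM in the 2-week knockout, 8081 CPM in the 3-week knockout and 15606 CPM in control. Control was the highest of the 3 libraries for each gene, and the class intervals do not overlap between control and either knockout. These 3 genes held 89.9% of the collagen UMIs of fibroblast-like cells in the 2-week knockout, 91.1% in the 3-week knockout and 93.5% in control.

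The ratio of the 2-week knockout to control was 0.47 for Col1a2 (0.46 to 0.48), 0.47 for Col1a1 (0.47 to 0.48) and 0.51 for Col3a1 (0.50 to 0.52). The ratio of the 3-week knockout to control was 0.51 for Col1a2 (0.51 to 0.52), 0.37 for Col1a1 (0.36 to 0.37) and 0.52 for Col3a1 (0.51 to 0.52). Type I chains did not keep 1 proportion: there were 0.88 Col1a1 UMIs per Col1a2 UMI in fibroblast-like cells of the 2-week knockout and 0.62 in those of the 3-week knockout, against 0.86 in control.

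The promoter windows of Col1a2 and Col3a1, the members of this group with a RefSeq entry (build GRCm38.p6, 250 bases before to 50 after the start), are shown because these genes lie at the top of the family and stood lower together in both knockout libraries. Capitals mark a CCAAT box, a TATAAA box or a GGGCGG (GC) box on either strand. The Col1a2 window is chr6:4505368-4505667 on the plus strand and the Col3a1 window is chr1:45311288-45311587 on the plus strand. The Col1a2 window lies wholly downstream of the annotated gene start (4504814), so the 2 sources place that start differently. The Col3a1 window spans its annotated start (45311538).
Col1a2: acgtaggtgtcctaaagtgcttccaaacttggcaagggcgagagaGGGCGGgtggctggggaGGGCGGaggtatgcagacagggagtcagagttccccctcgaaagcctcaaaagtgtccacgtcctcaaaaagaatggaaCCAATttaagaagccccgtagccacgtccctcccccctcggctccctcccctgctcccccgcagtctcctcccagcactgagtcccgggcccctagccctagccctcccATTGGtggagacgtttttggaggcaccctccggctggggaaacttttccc
Col3a1: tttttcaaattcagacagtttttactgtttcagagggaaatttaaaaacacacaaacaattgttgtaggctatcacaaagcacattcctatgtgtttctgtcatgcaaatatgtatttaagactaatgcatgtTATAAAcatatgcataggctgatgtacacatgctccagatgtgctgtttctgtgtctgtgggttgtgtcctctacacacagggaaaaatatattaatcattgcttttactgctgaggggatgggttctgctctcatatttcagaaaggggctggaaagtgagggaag

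The windows share none of the marked motifs, and a motif just outside a window is not seen, so no promoter is said to lack one. The Col1a2 window is 61.0% G and C and holds GGGCGG at 2 positions and CCAAT once on each strand, while the Col3a1 window is 37.7% G and C and holds TATAAA once. No marked matches overlap in these windows. Among all 32851 promoter windows of the table, CCAAT or its reverse ATTGG is present in 37.4%, TATAAA or TTTATA in 13.6% and GGGCGG or CCGCCC in 35.7%. Of the 36 collagens, 29 have a window, and of those 29 genes, 10 hold CCAAT, 3 hold TATAAA and 20 hold GGGCGG on either strand. Col1a1, Col2a1, Col4a3, Col5a2, Col9a3, Col12a1 and Col14a1 have no entry.

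Type V collagen, which sets the diameter of type I fibrils, followed the same direction in fibroblast-like cells. Col5a2 had 568 CPM in the 2-week knockout, 558 CPM in the 3-week knockout and 987 CPM in control. Col5a1 had 404 CPM in the 2-week knockout, 354 CPM in the 3-week knockout and 695 CPM in control. Col5a3 had 114 CPM in the 2-week knockout, 73.8 CPM in the 3-week knockout and 240 CPM in control, which gave ratios to control of 0.47 (0.38 to 0.59) at 2 weeks and 0.31 (0.27 to 0.35) at 3 weeks. All 3 type V genes stood highest in control. Their values were lowest in the 3-week knockout library, but the order of the 2 knockouts is not claimed for Col5a2 (475 UMIs in the 2-week knockout and 2507 in the 3-week knockout) or Col5a1 (338 and 1592 UMIs).

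Over the family, 22 of the 36 members had at least 50 UMIs in fibroblast-like cells of the 2 libraries compared, in each of the 2 comparisons. A ratio of at least 1.5-fold is used as the size that is counted. In the 2-week knockout 9 of 22 members were at least 1.5-fold lower and 2 were at least 1.5-fold higher than in control, where 10.5% of all 7195 genes ranked the same way were as much lower and 17.4% as much higher. In the 3-week knockout 11 of 22 were at least 1.5-fold lower and 0 were higher, where 5.36% of 9162 genes were as much lower and 19.6% as much higher. The median log2 ratio, on the log2(CPM + 5) scale, of the members was −0.20 at 2 weeks, against 0.10 for all ranked genes, and −0.56 at 3 weeks, against 0.17 for all ranked genes. The 2 comparisons share the control library, so they are not independent of each other.

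**Figure D2:**
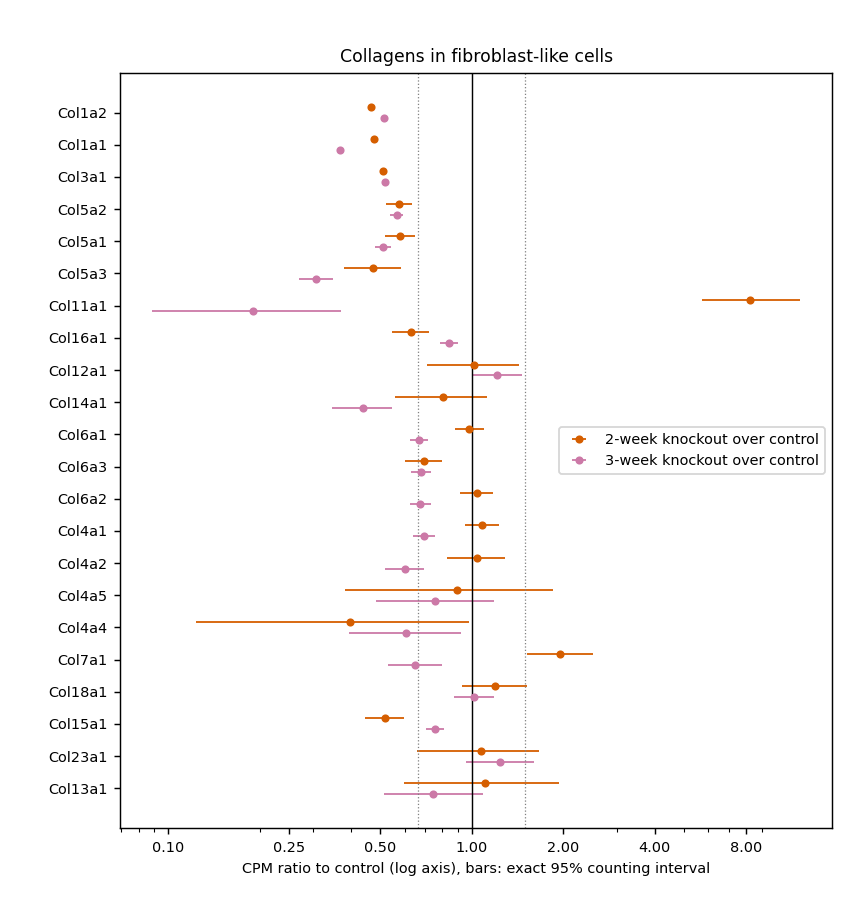
Ratio of CPM in each knockout library to control in fibroblast-like cells for the 22 collagens with at least 50 UMIs (rows, by structural role), on a log axis. Points are the 2-week and 3-week knockouts, bars are exact 95% counting intervals, the solid line is 1 and dotted lines mark 1.5-fold. Col1a1, Col1a2, Col3a1 and the type V genes lie left of the lower dotted line in both comparisons, and Col11a1 lies on opposite sides of 1.

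Several non-fibrillar members of fibroblast-like cells were also lower. Col15a1, a basement membrane-zone multiplexin, had 245 CPM in the 2-week knockout, 359 CPM in the 3-week knockout and 473 CPM in control. Col16a1, a fibril-associated member, had 275 CPM in the 2-week knockout, 368 CPM in the 3-week knockout and 437 CPM in control, and its ratio was past 1.5-fold at 2 weeks (0.63, 0.55 to 0.72) and not at 3 weeks (0.84, 0.79 to 0.90). Col14a1, a fibril-associated collagen of mature dermis, had 49.0 CPM in the 2-week knockout, 26.7 CPM in the 3-week knockout and 61.1 CPM in control. The type VI gene Col6a1 gave other values, with 480 CPM in the 2-week knockout, 329 CPM in the 3-week knockout and 490 CPM in control. Its ratio to control over the class was 0.98 (0.88 to 1.09) at 2 weeks and 0.67 (0.63 to 0.72) at 3 weeks, just inside 1.5-fold. Within each of the 4 clusters described below it was lower than in control at 2 weeks. The ratios were 0.47 (0.34 to 0.65) in Dcn/Lum and 0.81 (0.68 to 0.96) in Igfbp2/Dcn. They were 0.72 (0.57 to 0.92) in Coch/Fmod and 0.66 (0.23 to 1.57) in Apod/Cxcl1. Coch/Fmod held 186 of 402 Col6a1 UMIs of the class in the 2-week knockout and 123 of 1788 in control. Over the class Col6a3 did not follow Col6a1 at 2 weeks: there were 0.57 Col6a3 UMIs per Col6a1 UMI in the 2-week knockout, 0.81 in the 3-week knockout and 0.80 in control. Coch/Fmod alone held 83 Col6a3 UMIs in the 2-week knockout and 56 in control.

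Fibroblast-like cells fell into 4 clusters, led by Dcn and Lum, by Igfbp2 and Dcn, by Coch and Fmod, and by Apod and Cxcl1, and their mix differed between libraries. The Coch/Fmod cluster was 42.9% of the class in the 2-week knockout (54 of 126 cells), 1.34% in the 3-week knockout (9 of 670 cells) and 5.57% in control (21 of 377 cells). Its collagen content is low: collagens were 1.41% of its UMIs in the 2-week knockout, 1.28% in the 3-week knockout and 1.64% in control. In the Dcn/Lum cluster collagens were 5.16% of UMIs in the 2-week knockout (41 cells), 3.54% in the 3-week knockout (526 cells) and 8.29% in control (290 cells). In the Igfbp2/Dcn cluster they were 6.34% of UMIs in the 2-week knockout (26 cells), 3.90% in the 3-week knockout (121 cells) and 6.44% in control (52 cells).

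Cluster by cluster, the ratio of summed collagen CPM to control was nearer to 1 at 2 weeks than over the class: 0.62 in Dcn/Lum, 0.98 in Igfbp2/Dcn, 0.86 in Coch/Fmod and 0.66 in Apod/Cxcl1, against 0.50 for the class. At 3 weeks it was 0.43 in Dcn/Lum, 0.60 in Igfbp2/Dcn, 0.78 in Coch/Fmod and 0.53 in Apod/Cxcl1, against 0.47 for the class. With the Coch/Fmod cluster left out, the class ratio was 0.71 at 2 weeks and 0.46 at 3 weeks, and the number of members at least 1.5-fold lower was 4 at 2 weeks and 9 at 3 weeks. The 2-week ratio of the class is thus past 1.5-fold with that cluster and not without it, and the 3-week ratio is past it with and without.

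Depth moved with the group too. The median cell of the Dcn/Lum cluster held 4969 UMIs in the 2-week knockout, 6054 in the 3-week knockout and 9287 in control. Among fibroblast-like cells of 4000 to 10000 UMIs (76 cells in the 2-week knockout, 453 in the 3-week knockout and 184 in control), the collagen ratio was 0.71 at 2 weeks, with 1 member at least 1.5-fold lower, and 0.61 at 3 weeks, with 8 members lower. Keratin UMIs in fibroblast-like cells, which come from another cell type, were 3091 CPM in the 2-week knockout, 2076 CPM in the 3-week knockout and 526 CPM in control, and their part in the result was not tested. The 9 fibroblast markers used for naming summed to 13739 CPM in the 2-week knockout, 28578 CPM in the 3-week knockout and 19386 CPM in control. Of these markers 4 (Pdgfra, Dpt, Pi16 and Clec3b) were at least 1.5-fold lower and 1 (Cygb) higher at 2 weeks, and at 3 weeks 0 were lower and 3 (Dcn, Pi16 and Fbln1) were higher.

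**Figure D3:**
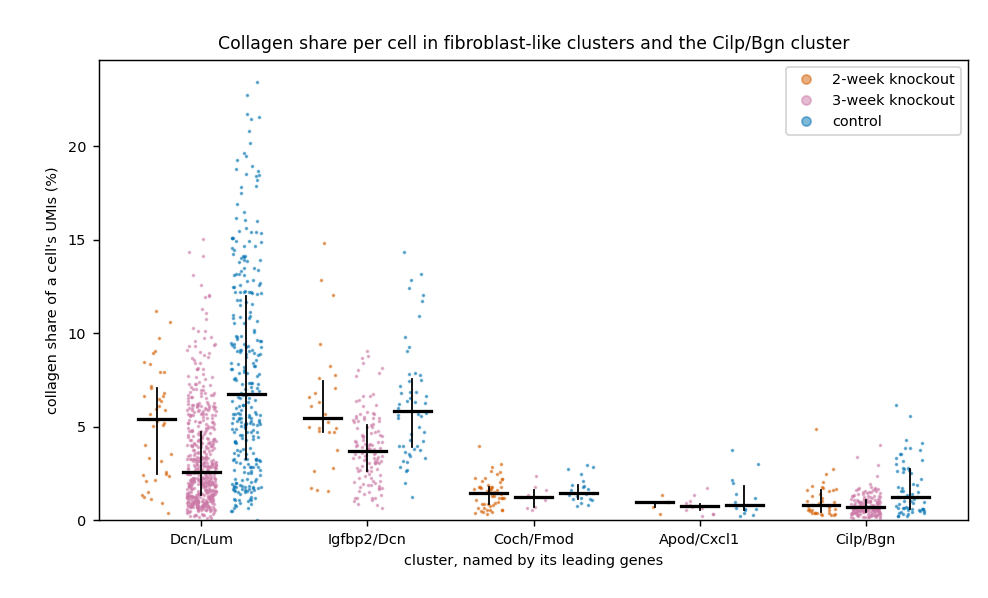
Share of each cell's UMIs that came from the 36 collagens, in the 4 fibroblast-like clusters and the Cilp/Bgn cluster, for the 2-week knockout, 3-week knockout and control libraries. Each point is a cell, the thick line is the median and the thin line spans the quartiles. In the Dcn/Lum cluster the median cell held 5.41% collagen UMIs in the 2-week knockout, 2.58% in the 3-week knockout and 6.75% in control, with wide overlap between single cells.

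Single cells showed the same order with broad overlap. In the Dcn/Lum cluster the quartiles of the collagen share per cell were 2.48% and 7.07% in the 2-week knockout, 1.33% and 4.74% in the 3-week knockout, and 3.29% and 12.03% in control. The highest cell reached 11.2% in the 2-week knockout, 15.1% in the 3-week knockout and 23.5% in control. Within the same cluster Col1a1 was the most reduced of the major 3 at 3 weeks (9389 CPM in the 3-week knockout and 28397 CPM in control, ratio 0.33), and Col5a3 was lower still (60.0 CPM in the 3-week knockout and 260 CPM in control, ratio 0.23, 0.20 to 0.27). The fibroblast-associated Col12a1 (75.3 CPM in the 3-week knockout and 65.3 CPM in control, 0.95 to 1.41) and Col18a1 (87.2 CPM in the 3-week knockout and 84.2 CPM in control, 0.87 to 1.24) had intervals that include 1 there, as did Col7a1 (16.7 CPM in the 3-week knockout and 16.4 CPM in control, 0.68 to 1.54).

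Col7a1 and Col11a1 were the members higher in fibroblast-like cells of the 2-week knockout. Col11a1, a minor fibrillar chain of cartilage and tendon, had 106 CPM in the 2-week knockout, 2.45 CPM in the 3-week knockout and 12.9 CPM in control over the class. Within the Coch/Fmod cluster it had 244 CPM in the 2-week knockout and 212 CPM in control, a ratio of 1.15 (0.78 to 1.74), against 8.25 over the class. Col7a1, the anchoring fibril collagen, had 114 CPM in the 2-week knockout, 37.8 CPM in the 3-week knockout and 58.1 CPM in control over the class, and within Coch/Fmod 181 CPM in the 2-week knockout and 286 CPM in control (ratio 0.63, 0.43 to 0.93). The Coch/Fmod cluster held 66 of the 95 Col7a1 UMIs of the class in the 2-week knockout, 9 of 170 in the 3-week knockout and 50 of 212 in control, and the Igfbp2/Dcn cluster held 26, 102 and 117 in the same order. Of the 89 Col11a1 UMIs of fibroblast-like cells in the 2-week knockout, all 89 came from Coch/Fmod cells.

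Genes that process and bind collagen were counted in the same cells, against the same shares of all genes (17.4% higher and 10.5% lower at 2 weeks, 19.6% and 5.36% at 3 weeks). They were counted over the class and not by cluster. The Coch/Fmod cluster was 42.9% of the class in the 2-week knockout, 1.34% in the 3-week knockout and 5.57% in control, and its part in these counts was not tested. From a list of 31 genes for chain modification, folding, secretion, cleavage and cross-linking, 22 were ranked in fibroblast-like cells at 2 weeks, of which 0 were at least 1.5-fold higher and 6 lower (P4ha2, P3h1, Mia3, Adamts2, Lox and Loxl1). At 3 weeks 25 were ranked, 0 were higher and 1 was lower. That gene was Adamts2, the procollagen N-propeptidase, with 566 CPM in the 2-week knockout, 511 CPM in the 3-week knockout and 992 CPM in control. The collagen chaperone Serpinh1 had 909 CPM in the 2-week knockout, 1145 CPM in the 3-week knockout and 1273 CPM in control, and the cross-linking enzyme Lox had 115 CPM in the 2-week knockout, 170 CPM in the 3-week knockout and 239 CPM in control. The median log2 ratio of the ranked list was −0.32 at 2 weeks and −0.12 at 3 weeks. Of 10 collagen receptors, 7 were ranked in each comparison. At 2 weeks 2 were higher (Itga11 and Ddr1) and 2 lower (Mrc2 and, with an interval of 0.30 to 1.19 that includes 1, Itga2). At 3 weeks 1 was higher (Ddr1) and 2 lower (Itga2 and Itga11). Ddr1 had 20.3 CPM in the 2-week knockout, 15.1 CPM in the 3-week knockout and 9.87 CPM in control, from 17, 68 and 36 UMIs. Keratin UMIs in these cells were 3091, 2076 and 526 CPM in the same order, and carry-over from keratinocytes was not tested.

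The Cilp/Bgn cluster, to which no class name could be given, also held fibrillar collagens. Col1a1 had 2240 CPM there in the 2-week knockout, 1366 CPM in the 3-week knockout and 4941 CPM in control. Its summed collagen ratio to control was 0.58 (0.55 to 0.61) at 2 weeks and 0.48 (0.47 to 0.50) at 3 weeks, with 38 cells in the 2-week knockout, 149 in the 3-week knockout and 62 in control. Keratin UMIs in this cluster were 2780 CPM in the 2-week knockout, 2010 CPM in the 3-week knockout and 651 CPM in control. The transmembrane collagen Col23a1 ran the other way in the same cells, with 224 CPM in the 2-week knockout, 204 CPM in the 3-week knockout and 88.1 CPM in control, and its intervals against control exclude 1 in both comparisons (1.57 to 4.16 and 1.56 to 3.53).

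Dermal papilla or sheath-like cells, the mesenchyme of the hair follicle, formed 1 cluster with 459 cells in the 2-week knockout, 840 in the 3-week knockout and 412 in control. Here the collagen share of UMIs was 0.241% in the 2-week knockout, 0.271% in the 3-week knockout and 0.240% in control. The ratio of summed collagen CPM to control was 1.003 at 2 weeks and 1.13 at 3 weeks, next to 0.50 and 0.47 in fibroblast-like cells of the same libraries, and the difference between the classes has no replicate test. Of 19 members ranked at 2 weeks, 0 were at least 1.5-fold higher and 1 lower (Col5a1), where 6.70% of all genes were as much higher and 7.77% as much lower. Of 20 ranked at 3 weeks, 1 was higher (Col6a6) and 2 lower (Col5a3 and, with an interval of 0.41 to 1.08 that includes 1, Col12a1), where 14.2% of all genes were as much higher and 9.54% as much lower. Col1a1 had 62.5 CPM in the 2-week knockout, 54.1 CPM in the 3-week knockout and 74.4 CPM in control, while Col6a3, a long chain of type VI collagen, had 455 CPM in the 2-week knockout, 638 CPM in the 3-week knockout and 543 CPM in control.

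Dermal papilla or sheath-like cells were the highest class on average for 3 members. Col23a1 had 421 CPM in the 2-week knockout, 406 CPM in the 3-week knockout and 321 CPM in control, its highest class in all 3 libraries. The class held 1233 of the 2656 Col23a1 UMIs of kept cells in the 2-week knockout, 1487 of 4963 in the 3-week knockout and 715 of 2022 in control. Most Col23a1 UMIs thus came from other cells. Col13a1, a second transmembrane collagen found at cell-matrix adhesions, had 142 CPM in the 2-week knockout, 141 CPM in the 3-week knockout and 154 CPM in control. Of all Col13a1 UMIs in kept cells, 81.4% came from this class. Col6a6 had 10.2 CPM in the 2-week knockout, 16.7 CPM in the 3-week knockout and 2.24 CPM in control, from 30, 61 and 5 UMIs in that order, and 94.1% of its UMIs lay in this class. Its ratio at 3 weeks was 7.43 with a wide interval (3.02 to 23.7), and no single cell of the 3-week knockout held more than 9.84% of its UMIs.

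Type VI chains were not used in 1 proportion across the mesenchyme. In dermal papilla or sheath-like cells there were 2.85 Col6a3 UMIs per Col6a1 UMI in the 2-week knockout, 2.96 in the 3-week knockout and 3.02 in control. In fibroblast-like cells there were 0.57 in the 2-week knockout, 0.81 in the 3-week knockout and 0.80 in control. The Cilp/Bgn cluster lay between them, with 0.97 in the 2-week knockout, 1.18 in the 3-week knockout and 0.99 in control. The intervals of the 3 cell groups do not overlap between papilla and fibroblast-like cells in any library. Since both genes are read by the same 3′ tags in every class, this compares 1 pair across cells and not the level of 1 gene with another.

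Type IV collagen genes lie in head-to-head pairs that share a start region. Col4a1 (GRCm38 chromosome 8, 11198423 to 11312826, minus strand) and Col4a2 (chromosome 8, 11312805 to 11449287, plus strand) encode the chains of the common basement membrane network, and their annotated starts lie 21 bases apart. The RefSeq windows are shown because the 2 genes are read outwards from 1 region and yet differ in proportion between cell types. Capitals mark the same motifs as above. The Col4a1 window is chr8:11312777-11313076 on the minus strand and the Col4a2 window is chr8:11312555-11312854 on the plus strand, and they share 78 bases (11312777 to 11312854).
Col4a1: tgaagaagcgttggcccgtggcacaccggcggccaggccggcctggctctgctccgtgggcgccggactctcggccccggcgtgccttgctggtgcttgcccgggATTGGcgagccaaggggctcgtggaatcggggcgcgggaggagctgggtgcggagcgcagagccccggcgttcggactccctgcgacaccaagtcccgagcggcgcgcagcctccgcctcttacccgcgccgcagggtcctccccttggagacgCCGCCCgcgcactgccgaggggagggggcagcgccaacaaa
Col4a2: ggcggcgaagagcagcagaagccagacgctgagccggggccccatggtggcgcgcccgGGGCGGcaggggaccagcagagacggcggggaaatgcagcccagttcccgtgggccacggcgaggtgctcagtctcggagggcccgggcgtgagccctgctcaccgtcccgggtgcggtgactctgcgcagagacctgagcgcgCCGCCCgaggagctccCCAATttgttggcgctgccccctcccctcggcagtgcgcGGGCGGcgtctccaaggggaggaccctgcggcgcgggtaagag

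Both windows are rich in G and C (74.0% for Col4a1 and 73.7% for Col4a2), and neither holds TATAAA. In fibroblast-like cells there were 2.88 Col4a1 UMIs per Col4a2 UMI in the 2-week knockout, 3.19 in the 3-week knockout and 2.76 in control. In bulge keratinocyte-like cells there were 1.02 in the 2-week knockout, 0.94 in the 3-week knockout and 1.29 in control, and in basal keratinocyte-like cells 1.55, 1.49 and 1.54 in the same order. Blood endothelial-like cells held 1.84 in the 2-week knockout, 1.43 in the 3-week knockout and 1.92 in control. Of these 4 classes fibroblast-like cells were highest in every library, with intervals apart from the others, and bulge cells were lowest, though in control their interval met those of basal and blood endothelial-like cells. Over all 44 values from 16 classes or clusters the proportion ran from 0.94 to 3.19 with a median of 1.70.

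Vessels and nerves gave high levels of this pair. Col4a1 had 487 CPM in blood endothelial-like cells of the 2-week knockout, 508 CPM in those of the 3-week knockout and 605 CPM in control. In Schwann-like cells it had 456 CPM in the 2-week knockout, 381 CPM in the 3-week knockout and 747 CPM in control. The 2 classes do not keep 1 order: the intervals lie apart, with endothelial higher, in the 3-week knockout alone, and overlap in the 2-week knockout and in control. Pericyte or vascular smooth muscle-like cells, with only 21 cells in the 2-week knockout, had 448 CPM there, 297 CPM in the 3-week knockout and 438 CPM in control. The Cilp/Bgn cluster had 458 CPM of Col4a1 in the 2-week knockout, 378 CPM in the 3-week knockout and 421 CPM in control. Its Col4a2 level was 311 CPM in the 2-week knockout, 211 CPM in the 3-week knockout and 276 CPM in control, and Col4a2 had no class that was highest in all 3 libraries.

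Col4a5 and Col4a6, whose chains join a smooth muscle and epidermal basement membrane network, were found in basal keratinocyte-like cells and in pericyte or vascular smooth muscle-like cells. In that muscle-like class, which is too small for the ordering, Col4a5 had 47.95 CPM in the 2-week knockout, 74.8 CPM in the 3-week knockout and 103 CPM in control, from 6, 30 and 50 UMIs. Col4a6 had 16.0 CPM in the 2-week knockout, 39.9 CPM in the 3-week knockout and 51.7 CPM in control, from 2, 16 and 25 UMIs. Among the classes of at least 35 cells in every library, basal cells were highest for Col4a6 in all 3 libraries and for Col4a5 in 2, and in the 3-week knockout the Pthlh/Serpinb11 cluster (27.2 CPM of Col4a5) overlapped them. In basal cells Col4a5 had 37.4 CPM in the 2-week knockout, 24.7 CPM in the 3-week knockout and 35.2 CPM in control. Col4a6 had 27.4 CPM in the 2-week knockout, 26.9 CPM in the 3-week knockout and 33.8 CPM in control. The 3-week knockout had 0.92 Col4a5 UMIs per Col4a6 UMI (0.82 to 1.03), next to 1.37 in the 2-week knockout (1.21 to 1.55) and 1.04 in control (0.90 to 1.20). In suprabasal keratinocyte-like cells Col4a5 had 8.84 CPM in the 3-week knockout and 15.2 CPM in control, a ratio of 0.58 (0.47 to 0.72), and in bulge keratinocyte-like cells 12.6 CPM in the 3-week knockout and 19.96 CPM in control, a ratio of 0.63 (0.45 to 0.89).

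Col4a3 and Col4a4, known for the kidney filter, came mostly from 1 hair follicle cluster led by Pthlh and Serpinb11. Col4a3 had 37.0 CPM in that cluster in the 2-week knockout, 41.7 CPM in the 3-week knockout and 38.3 CPM in control. Col4a4 had 80.2 CPM in the 2-week knockout, 110 CPM in the 3-week knockout and 94.1 CPM in control. The intervals of the 3 libraries overlap for both genes. This cluster, with 594 cells in the 2-week knockout, 186 in the 3-week knockout and 153 in control, held 76.4% of the Col4a3 UMIs and 61.9% of the Col4a4 UMIs of kept cells. The next class for Col4a4 was fibroblast-like cells, with 5.97 CPM in the 2-week knockout, 9.12 CPM in the 3-week knockout and 15.1 CPM in control.

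Keratinocytes made little fibrillar collagen and a distinct set of other members. In basal keratinocyte-like cells Col7a1 had 90.4 CPM in the 2-week knockout, 89.3 CPM in the 3-week knockout and 82.4 CPM in control. Col18a1, the basement membrane multiplexin that yields endostatin, had 76.0 CPM in the 2-week knockout, 72.7 CPM in the 3-week knockout and 68.3 CPM in control, and Col16a1 had 59.6 CPM in the 2-week knockout, 68.4 CPM in the 3-week knockout and 59.3 CPM in control. These 3 differed from control by less than 1.5-fold in both comparisons. Col23a1 had 45.0 CPM in the 2-week knockout, 79.0 CPM in the 3-week knockout and 61.7 CPM in control, with the knockouts on either side of control.

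Of 13 members ranked in basal keratinocyte-like cells at 2 weeks, 0 were at least 1.5-fold higher and 3 lower, where 8.74% of all genes were as much higher and 4.23% as much lower. At 3 weeks, 1 of 13 was higher and 3 lower, where 15% of all genes were as much higher and 8.65% as much lower. The 3 lower members were Col1a1, Col1a2 and Col3a1 in both comparisons, which are at trace levels here: their sum was 4.58 CPM in the 2-week knockout, 9.41 CPM in the 3-week knockout and 20.9 CPM in control. In T or natural killer-like cells, which should lack these genes, the same sum was 29.2 CPM in the 2-week knockout, 21.1 CPM in the 3-week knockout and 100 CPM in control. The basal CPM was below that of the T or natural killer-like class in every library. In control most of that class's UMIs came from its Icos/Cd52 cluster: 40 of 46 for Col1a2, 32 of 38 for Col1a1 and 28 of 34 for Col3a1. The Icos/Cd52 cluster had 8 cells in the 2-week knockout, 84 in the 3-week knockout and 112 in control. The mix behind the T or natural killer-like level thus differed between libraries. Basal cells were also deeper, with a median of 11351, 12616 and 15057 UMIs per cell against 3320, 3682 and 4474 in the same order. Whether the basal level is background or expression was not tested. The 1 higher member, Col6a1, had 13.7 CPM in the 2-week knockout, 17.2 CPM in the 3-week knockout and 9.55 CPM in control, and its ratio at 3 weeks was 1.802 (1.45 to 2.25) over the class and 2.02 (1.57 to 2.62) within the Epgn/Itga2 cluster of basal cells. In the other basal cluster, Fbxo32/Krt14, with 1031 cells in the 3-week knockout and 132 in control, it was 1.45 (0.88 to 2.54).

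**Figure D4:**
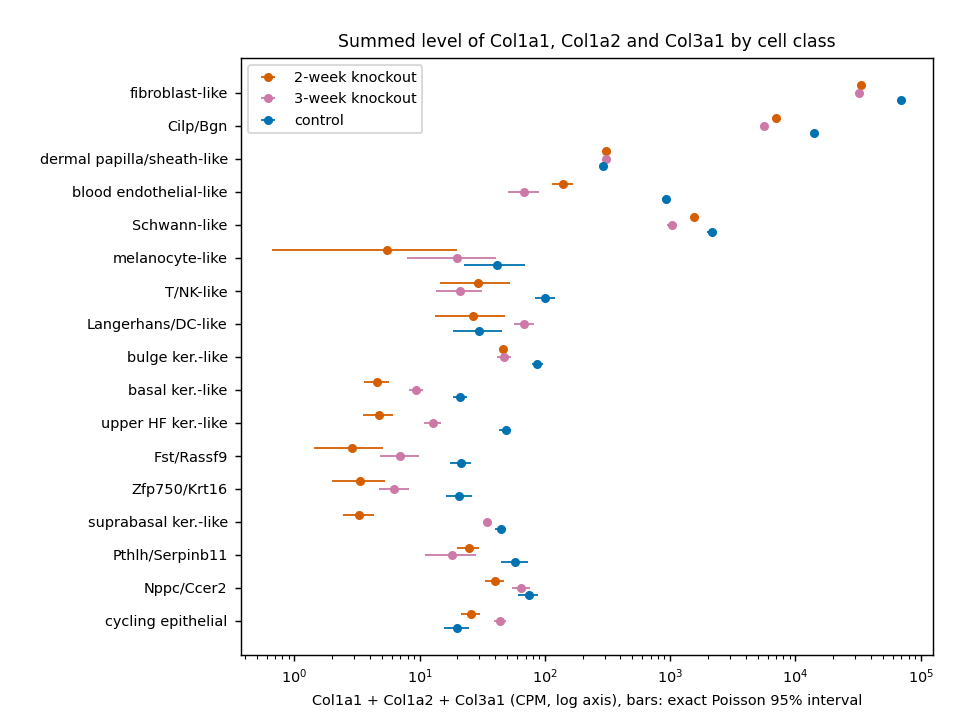
Summed level of Col1a1, Col1a2 and Col3a1 in CPM (log axis) by cell class or cluster, with the 2-week knockout, 3-week knockout and control libraries from top to bottom within each row. Bars are exact Poisson 95% intervals. Control lies to the right of both knockouts except in dermal papilla or sheath-like, cycling epithelial and Langerhans or dendritic-like cells, and 1 cell holds 94.9% of the Col1a1 UMIs behind the blood endothelial-like control point.

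The sum of the same 3 genes was higher in control than in both knockouts in all of the 17 classes or clusters except dermal papilla or sheath-like cells, cycling epithelial cells and Langerhans or dendritic-like cells. In blood endothelial-like cells Col1a1 had 12.5 CPM in the 2-week knockout, 10.7 CPM in the 3-week knockout and 387 CPM in control, where 1 cell held 94.9% of the 276 control UMIs. In cycling epithelial cells, where the 3 genes were at least 1.5-fold higher at 3 weeks, 1 cell of the 3-week knockout held 46.2% of the Col3a1 UMIs and 1 cell of the 2-week knockout held 93.3%. Their part in the class values was not tested.

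Bulge keratinocyte-like cells, the niche of hair follicle stem cells, held Col8a2 and Col5a2, which were under 1 CPM in basal keratinocyte-like cells, and more Col18a1 and Col12a1 than basal cells. Col8a2, a short-chain collagen best known from the corneal endothelium, had 122 CPM in the 2-week knockout, 102 CPM in the 3-week knockout and 144 CPM in control, and 80.3% of its UMIs came from this class. Col18a1 had 180 CPM in the 2-week knockout, 149 CPM in the 3-week knockout and 215 CPM in control. Col12a1 had 96.6 CPM in the 2-week knockout, 68.4 CPM in the 3-week knockout and 138 CPM in control, and Col5a2 had 51.8 CPM in the 2-week knockout, 31.1 CPM in the 3-week knockout and 61.1 CPM in control. All 4 stood lowest in the 3-week knockout and highest in control. At 3 weeks 5 of 15 ranked members were at least 1.5-fold lower (Col1a1, Col3a1, Col5a2, Col12a1 and Col4a5) and 0 higher, where 10.1% of all genes were as much lower and 11.5% as much higher. At 2 weeks 3 of 17 were lower (Col1a1, Col3a1 and Col5a1) and 0 higher, where 5.24% of all genes were as much lower and 8.27% as much higher.

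The Col3a1 share of these fibrillar UMIs was lower in bulge cells than in fibroblasts in each library, most so in the 2-week knockout. Col3a1 gave 2.68% of the summed Col1a1, Col1a2 and Col3a1 UMIs of bulge keratinocyte-like cells in the 2-week knockout, 13.9% in the 3-week knockout and 15.8% in control. In fibroblast-like cells it gave 23.7% in the 2-week knockout, 24.9% in the 3-week knockout and 22.2% in control. The 2-week knockout bulge held 395 Col1a1 UMIs and 24 Col3a1 UMIs in 2950 cells, and the cell with the most Col1a1 held 1.52% of them. The sum of the 3 genes in bulge cells was 45.9 CPM in the 2-week knockout, 47.0 CPM in the 3-week knockout and 87.0 CPM in control. That was above the T or natural killer-like level in both knockouts and below it in control. As given above, most of that control level came from the Icos/Cd52 cluster, whose share of the class differed between libraries. The comparison was not made by cluster. How much of the bulge sum is background was not tested.

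The other epithelial groups are given with the shares of all genes beside each count. Their lower members were often Col1a1, Col1a2 and Col3a1, which can be at trace levels here too. In the Fst/Rassf9 cluster Col1a2 had 1.04 CPM in the 2-week knockout, 4.38 CPM in the 3-week knockout and 9.28 CPM in control. Collagen was also 0.0858%, 0.188% and 0.517% of all UMIs of the libraries in the same order. Whether these lower values are background was not tested. In upper hair follicle keratinocyte-like cells 0 of 14 ranked members were higher and 3 lower at 2 weeks (background 9.32% higher and 6.44% lower), and 2 of 13 were higher and 3 lower at 3 weeks (background 11.5% and 9.21%). The lower members were Col1a1, Col1a2 and Col3a1 in both, and the higher ones were Col16a1 (18.4 CPM in the 3-week knockout and 11.3 CPM in control) and Col23a1 (14.9 CPM in the 3-week knockout and 7.22 CPM in control). The mix of this class differed, with 630 of 1271 cells in the Sostdc1/Cxcl10 cluster in the 3-week knockout and 179 of 547 in control. Within that cluster the ratios were 1.09 for Col16a1 (0.80 to 1.52) and 1.32 for Col23a1 (0.91 to 1.96), and in the Defb6/Cst6 cluster 0.90 (0.47 to 1.74) and 1.57 (0.71 to 3.72), so no interval within a cluster leaves out 1. In suprabasal keratinocyte-like cells 1 of 13 was higher, Col7a1, and 3 were lower, Col1a1, Col1a2 and Col3a1, at 2 weeks (background 5.90% and 6.81%). At 3 weeks 0 of 15 were higher and 3 were lower there, Col4a1, Col4a2 and Col4a5 (background 8.66% and 9.31%).

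In the Fst/Rassf9 cluster 0 of 12 were higher and 2 lower at 2 weeks (background 5.73% and 5.69%), and 2 were higher and 2 lower at 3 weeks (background 9.28% and 10.1%). Its higher members were Col7a1, with 59.6 CPM in the 3-week knockout and 38.8 CPM in control, and Col23a1, with 53.9 CPM in the 3-week knockout and 26.02 CPM in control. In the Zfp750/Krt16 cluster 1 of 8 was higher, Col6a1, and 0 lower at 2 weeks (background 7.05% and 5.75%), and 3 of 8 were higher and 2 lower at 3 weeks (background 12% and 9.84%). The 3 higher members there were Col7a1, Col16a1 and Col23a1, and the 2 lower ones Col1a2 and Col12a1.

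In the Pthlh/Serpinb11 cluster 0 of 16 were higher and 2 lower at 2 weeks, Col1a2 and Col4a1 (background 9.48% and 8.17%), and 0 of 10 were higher and 3 lower at 3 weeks, Col5a2, Col8a2 and Col18a1 (background 9.66% and 13.9%). In the Nppc/Ccer2 cluster 0 of 12 were higher and 3 lower at 2 weeks, Col1a1, Col1a2 and Col8a2 (background 7.45% and 6.04%), and 1 of 10 was higher, Col16a1, and 1 lower, Col8a2, at 3 weeks (background 11.2% and 13.3%). Col8a2 had 21.5 CPM there in the 2-week knockout, 25.1 CPM in the 3-week knockout and 42.8 CPM in control. In cycling epithelial cells 3 of 14 were higher, Col1a1, Col6a1 and Col8a1, and 0 lower at 2 weeks (background 6.12% and 5.53%), of which Col1a1 and Col6a1 had intervals that include 1, and 4 of 13 were higher, Col1a1, Col1a2, Col3a1 and Col6a1, and 0 lower at 3 weeks (background 9.34% and 9.49%). In the Lyz2/Ccl8 cluster, compared at 3 weeks alone, no member had enough UMIs to be ranked (background 6.77% and 18.9%).

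Melanocyte-like cells were set apart by Col12a1, a fibril-associated collagen of dense connective tissue. It had 763 CPM in the 2-week knockout, 669 CPM in the 3-week knockout and 873 CPM in control, and a UMI was found in 87.6% of the cells in the 2-week knockout, 78.0% in the 3-week knockout and 92.3% in control. In T or natural killer-like cells, which should lack it, a UMI was found in 1%, 1.05% and 6.45% of the cells in the same order, at a median depth of 3320, 3682 and 4474 UMIs per cell, against 2554, 2403 and 3508 in melanocyte-like cells. The Cilp/Bgn cluster had 61.1 CPM in the 2-week knockout, 106 CPM in the 3-week knockout and 171 CPM in control, and bulge cells were above it in the 2-week knockout. Col1a1 in melanocyte-like cells was 5.47 CPM in the 2-week knockout, 2.82 CPM in the 3-week knockout and 14.7 CPM in control, so Col12a1 was not accompanied there by a high Col1a1 level. Col16a1, whose highest class was fibroblast-like cells, had 93.0, 130 and 130 CPM in melanocyte-like cells in the same order, from 34, 46 and 44 UMIs. The class is small, with 89 cells in the 2-week knockout, 109 in the 3-week knockout and 78 in control, which is why no ratio to control is counted for it.

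**Figure D5:**
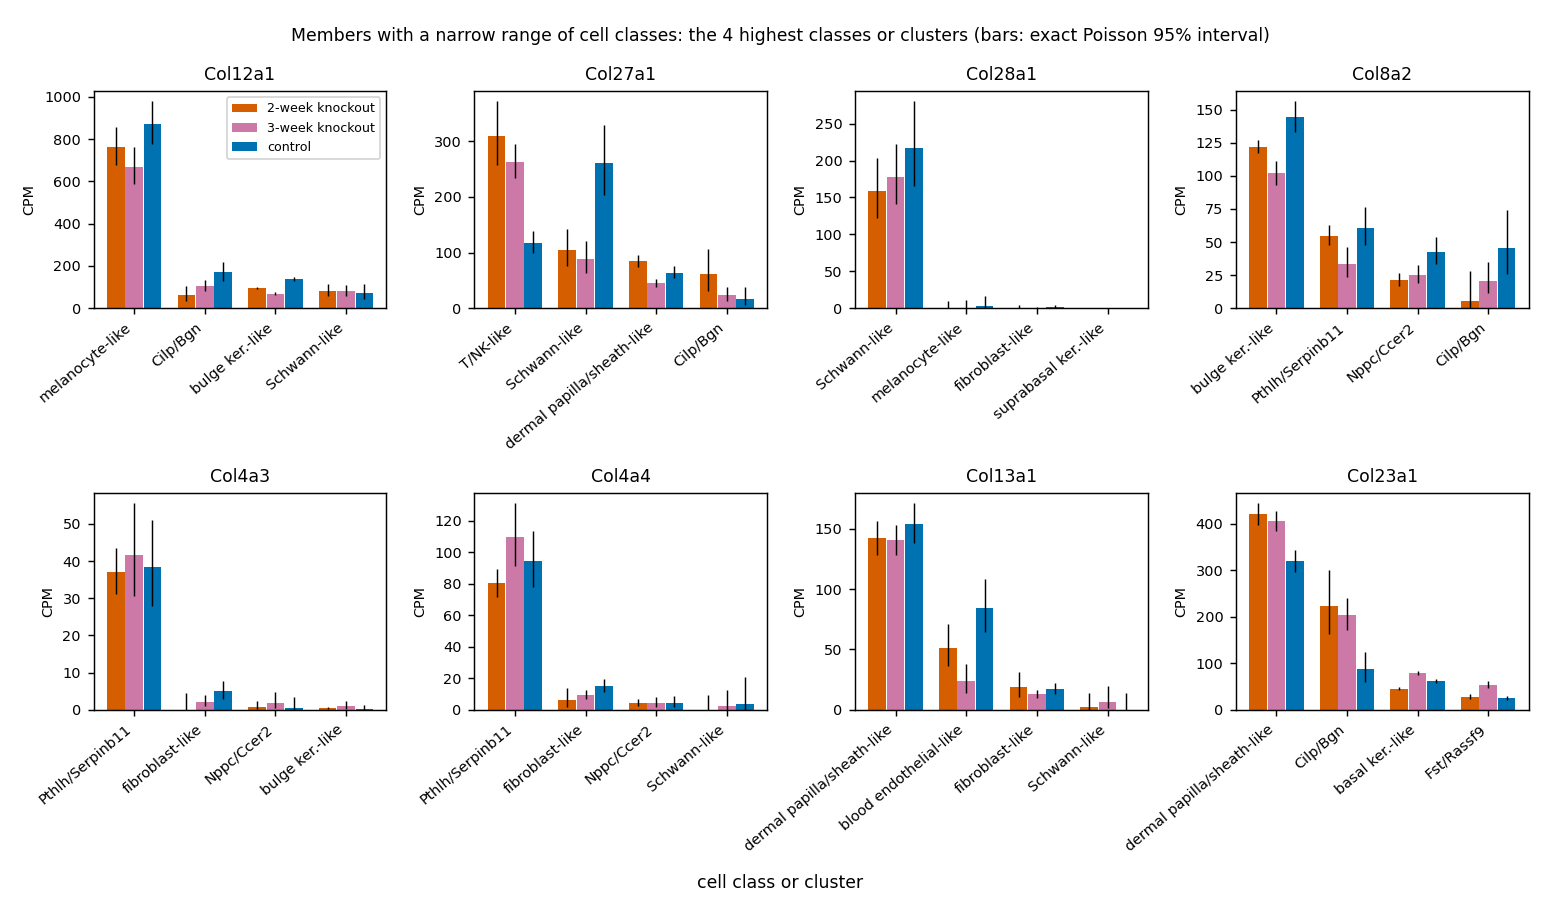
Level in CPM of 8 collagens in the 4 classes or clusters where each is highest on average, for the 2-week knockout, 3-week knockout and control libraries from left to right. Bars start at 0 and error bars are exact Poisson 95% intervals. Col12a1 peaks in melanocyte-like cells, Col28a1 in Schwann-like cells, Col8a2 in bulge keratinocyte-like cells and Col4a3 and Col4a4 in the Pthlh/Serpinb11 cluster in all 3 libraries.

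Schwann-like cells, the glia of skin nerves, were the highest class for Col5a3, Col14a1 and Col28a1 in all 3 libraries, with intervals apart from every other class. Col28a1, a collagen of peripheral nerve, had 159 CPM in the 2-week knockout, 178 CPM in the 3-week knockout and 217 CPM in control, and 91.7% of its UMIs lay in this class. Col5a3 had 226 CPM in the 2-week knockout, 162 CPM in the 3-week knockout and 405 CPM in control, and Col14a1 had 136 CPM in the 2-week knockout, 91.2 CPM in the 3-week knockout and 129 CPM in control. Col5a3 in these cells came with 1.63 UMIs per Col5a2 UMI in the 2-week knockout, 1.87 in the 3-week knockout and 3.67 in control, against 0.20, 0.13 and 0.24 in fibroblast-like cells in the same order. Col24a1 was found by 12 UMIs in the 2-week knockout and 18 in the 3-week knockout and had 0 in control, which allows up to 11.04 CPM (3 counts). The lower interval limits were 15.9 CPM in the 2-week knockout and 24.3 CPM in the 3-week knockout. Schwann-like cells numbered 130 in the 2-week knockout, 153 in the 3-week knockout and 79 in control, and 2 clusters made up the class. Their mix differed: the Apod/Scn7a cluster was 43 of those cells in the 2-week knockout, 38 in the 3-week knockout and 40 in control. Col5a3 in that cluster had 412 CPM in the 2-week knockout, 285 CPM in the 3-week knockout and 609 CPM in control, above the class value in each library. Keratin UMIs in Schwann-like cells were 3441 CPM in the 2-week knockout, 3097 CPM in the 3-week knockout and 909 CPM in control.

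Immune classes held few members. Col27a1, a fibrillar collagen of cartilage, had 310 CPM in T or natural killer-like cells of the 2-week knockout, 263 CPM in those of the 3-week knockout and 117 CPM in control. This class holds a Ctla2a/Cd3g cluster and an Icos/Cd52 cluster, and Col27a1 came from the first: 369 CPM in the 2-week knockout (92 cells), 382 CPM in the 3-week knockout (203 cells) and 297 CPM in control (105 cells). Within it the ratio to control was 1.24 (0.96 to 1.60) at 2 weeks and 1.29 (1.05 to 1.58) at 3 weeks, against 2.64 and 2.24 over the class, where the Icos/Cd52 cluster, with 0, 3 and 0 Col27a1 UMIs, gave 8 cells in the 2-week knockout, 84 in the 3-week knockout and 112 in control. In the 2-week knockout 1 member was ranked over the class and was higher, where 11.6% of all genes were as much higher and 18.1% as much lower. In the 3-week knockout 3 were ranked, of which 2 were higher (Col27a1 and Col11a1) and 1 lower (Col1a2), where 10.4% of all genes were as much higher and 13.3% as much lower. Col11a1 was also present, at 47.7 CPM in the 2-week knockout, 65.8 CPM in the 3-week knockout and 17.004 CPM in control. In the Ctla2a/Cd3g cluster Col11a1 had 56.7 CPM in the 2-week knockout, 96.4 CPM in the 3-week knockout and 40.9 CPM in control, with a 3-week ratio of 2.36 (1.41 to 4.13). Langerhans or dendritic-like cells held Col16a1 at 96.7 CPM in the 2-week knockout, 177 CPM in the 3-week knockout and 115 CPM in control, with their Col1a1, Col1a2 and Col3a1 sum at 26.6 CPM, 68.3 CPM and 29.8 CPM in the same order.

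Across the 17 classes and clusters of at least 35 cells in each library, 21 of the 36 members had the same highest class in all 3 libraries, 11 in 2 and 4 in 1. For 14 members the highest class lay above every other in all 3 libraries with intervals apart: Col1a1, Col1a2, Col3a1, Col5a1 and Col16a1 in fibroblast-like cells, Col13a1 and Col23a1 in dermal papilla or sheath-like cells, Col5a3, Col14a1 and Col28a1 in Schwann-like cells, Col12a1 in melanocyte-like cells, Col8a2 in bulge keratinocyte-like cells, and Col4a3 and Col4a4 in the Pthlh/Serpinb11 cluster. Neighbours in the order were not apart for Col6a3, whose highest values were in the Cilp/Bgn cluster and the dermal papilla, nor for Col8a1, shared by the Fst/Rassf9 cluster, blood endothelial-like cells and upper hair follicle cells. Col2a1, Col11a2, Col20a1, Col25a1 and Col6a5 are low everywhere, with at most 13 UMIs in their highest class, and no class is claimed for them.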

How the data were processed

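The deposited values are raw UMI counts per gene and cell barcode, made by the authors with Cell Ranger 6.1.2 per the file headers, on the mouse build mm10 per the submitters' processing notes. Cells with fewer than 500 genes or over 15% mitochondrial UMIs were removed, then doublets called by Scrublet in scanpy 1.11.5 (284 barcodes in the 2-week knockout, 394 in the 3-week knockout and 110 in control). The libraries shared 17 to 29 cell barcodes in pairs. Cells were clustered without collagen genes (2000 variable genes, 30 components, 15 neighbours, Leiden resolution 1, leidenalg 0.10.2) and named "X-like" from marker lists, with naming thresholds set after the clusters were seen. The members and lists were chosen with earlier results of these data known. UMIs were summed per class and library. Exact Poisson and conditional binomial 95% intervals came from scipy 1.17.1. Ratios were counted past 1.5-fold among genes with at least 50 UMIs over both libraries, in classes of at least 100 cells in both. The naming rule took members past that fold with an interval that leaves out 1, the 10 most abundant of fibroblast-like cells and each member's highest class. Counted members whose interval includes 1 are also named, chosen after their values were seen. The ratio code was tested on simulated data. Genes were placed by ID in a GRCm38 annotation. Promoter windows are from RefSeq.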

Additional observations from a re-analysis of the deposited data

Results flagged for a closer look

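The ratios below pointed in opposite directions at 2 times or in 2 cell classes. Each group is 1 library and both comparisons share the control library, so none of these differences was tested. In fibroblast-like cells Col7a1 had a ratio to control of 1.95 at 2 weeks and 0.65 at 3 weeks, and Col11a1 8.25 at 2 weeks and 0.19 at 3 weeks. The Coch/Fmod cluster was 42.9% of that class in the 2-week knockout, 1.34% in the 3-week knockout and 5.57% in control. It held 89 of 89, 5 of 11 and 37 of 47 Col11a1 UMIs of the class in the same order, and 66 of 95, 9 of 170 and 50 of 212 Col7a1 UMIs.

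At 3 weeks 5 members differed in direction between classes. Col1a2 was 2.03 in cycling epithelial cells and 0.157 in T or natural killer-like cells. Col1a1 was 2.36 in cycling epithelial cells and 0.226 in upper hair follicle keratinocyte-like cells, and Col3a1 was 2.34 and 0.214 in the same classes. In the cycling class 1 cell of the 3-week knockout held 35.5% of the Col1a1 UMIs and 46.2% of the Col3a1 UMIs. Col7a1 was 1.68 in the Zfp750/Krt16 cluster and 0.65 in fibroblast-like cells. Col11a1 was 3.87 in T or natural killer-like cells and 0.19 in fibroblast-like cells.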

How the results depend on the processing

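No paired analysis was possible because each group has 1 library, and for the same reason no replicate could be left out. The summed collagen ratio of fibroblast-like cells at 2 weeks (0.498 as reported) was 0.460 with mitochondrial shares under 10%, 0.457 at Leiden resolution 2, 0.462 with collagens kept in clustering, 0.460 with median-of-ratios scaling, 0.479 scaled without collagen UMIs, 0.512 as a mean of per-cell CPM, 0.779 with clusters weighed equally, 0.622 in the largest cluster and 0.5004 with doublets kept. With alternatives chosen after seeing the data it was 0.461 with the Cilp/Bgn cluster added, 0.681 with knockout clusters weighed by control shares, 0.711 without Coch/Fmod and 0.708 in cells of 4000 to 10000 UMIs. At 3 weeks (0.474) the same 13 settings gave, in the order named, 0.4602, 0.4582, 0.4584, 0.411, 0.454, 0.475, 0.532, 0.427 and 0.436, then 0.4577, 0.4583, 0.459 and 0.612. The dermal papilla ratio at 3 weeks (1.13) was 1.04 with doublets kept and 1.08 as a per-cell mean. The count of members lower at 2 weeks (9) was 5 with clusters weighed equally, 16 in the largest cluster, 4 at 2-fold, 4 without Coch/Fmod and 1 in the depth band. At 3 weeks (11) it was 18 with median-of-ratios scaling, 17 with no count filter and 4 at 2-fold. Of 64 called ratios, 36 stayed past 1.5-fold under all 9 alternatives run on them, and 10 of 576 values reversed; the cause was not tested. These were Col1a2 in T or natural killer-like cells with doublets kept (3.09), Col1a2 (0.651) and Col3a1 (0.812) in cycling epithelial cells as per-cell means, and Col16a1 (0.973) and Col23a1 (0.987) in upper hair follicle cells at resolution 2, all at 3 weeks. In fibroblast-like cells they were Col11a1 (0) and Col7a1 (0.745) at 2 weeks and Col7a1 (1.02) at 3 weeks in the largest cluster, and Col7a1 at 2 weeks (0.659) and Col4a4 at 3 weeks (2.39) with clusters weighed equally. Depth limits members under 50 UMIs in a class, which have no counted ratio.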
